A study of Mus musculus with 24 samples.

Results

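The 39 Hox genes of the mouse were followed through mouse embryonic stem cells of wild-type and Smad2 knockout lines. Members were the rows of the authors' deposited tables whose symbol is Hoxa, Hoxb, Hoxc or Hoxd followed only by digits, so the antisense transcripts of the clusters were left out. The control table listed 24 of them among 19780 genes and the paused table listed 31 among 19979. 23 stood in both tables and 32 in at least 1. Absent from both were Hoxa4, Hoxa6, Hoxb3, Hoxb5, Hoxb6, Hoxd3 and Hoxd12. The rule used names only, and no measured value.

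E14 cells, a line derived from the inner cell mass of the blastocyst, were grown on gelatin in serum with LIF. They were wild type (WT) or came from the Smad2 knockout lines Smad2_KO1 and Smad2_KO2. Smad2 codes for a transcription factor activated by receptors for Nodal and activin. Each of these 3 genotypes was sampled as control cells, or as paused cells kept for 12 h with 200 nM INK128, which blocks the kinase mTOR and brings on a dormant state like diapause, giving 6 groups of 4 poly(A) RNA libraries. How the knockout lines were made, and whether each is a single clone, is not given in the sources used here.

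Hox genes code for homeodomain transcription factors that give segments of the body axis, and later the limbs and genital tract, their identity. They lie in 4 clusters, HoxA to HoxD, and are numbered in paralog groups from 1 to 13. Low-numbered genes at the 3′ end of a cluster are switched on first and in the most anterior tissue. High-numbered genes at the 5′ end follow later and act in the posterior trunk and tail. In embryonic stem cells the clusters are known to be covered by Polycomb repressive complexes and to be almost silent.

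Because paralogs of different clusters look alike, the homeoboxes of group 13, the group with the most called genes (Hoxb13, Hoxc13 and Hoxd13), are shown to let their separability in short reads be judged. Each is the coding stretch of 60 codons, 180 bases, in the last exon of the gene (GENCODE M21 on GRCm38, the build that corresponds to mm10). Hoxc13 lies at chr15:102927210-102927389 on the plus strand and Hoxa13 at chr6:52258928-52259107 on the minus strand. Hoxb13 lies at chr11:96196020-96196199 and Hoxd13 at chr2:74669930-74670109, both on the plus strand. Capitals mark each base that differs from Hoxc13.
Hoxc13: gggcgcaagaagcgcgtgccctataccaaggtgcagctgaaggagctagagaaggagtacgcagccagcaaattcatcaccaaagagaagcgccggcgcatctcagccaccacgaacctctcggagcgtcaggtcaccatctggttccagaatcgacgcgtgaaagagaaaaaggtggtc
Hoxa13: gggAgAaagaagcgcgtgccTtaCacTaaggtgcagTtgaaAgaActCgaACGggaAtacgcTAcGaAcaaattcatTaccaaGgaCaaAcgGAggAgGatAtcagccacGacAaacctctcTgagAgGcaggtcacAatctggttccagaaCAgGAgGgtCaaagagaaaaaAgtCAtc
Hoxb13: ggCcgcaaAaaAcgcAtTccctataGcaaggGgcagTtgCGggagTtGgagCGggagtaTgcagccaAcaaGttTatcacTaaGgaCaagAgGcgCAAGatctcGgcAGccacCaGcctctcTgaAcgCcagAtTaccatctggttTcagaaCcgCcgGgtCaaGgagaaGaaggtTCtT
Hoxd13: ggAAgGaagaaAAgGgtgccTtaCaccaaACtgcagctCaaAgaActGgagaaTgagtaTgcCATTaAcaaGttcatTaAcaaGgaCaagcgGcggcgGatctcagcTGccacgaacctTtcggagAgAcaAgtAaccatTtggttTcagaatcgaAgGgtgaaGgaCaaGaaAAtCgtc
Even in this most conserved stretch Hoxa13 differed from Hoxc13 at 41 bases, Hoxd13 at 45 and Hoxb13 at 47. The longest run of identical bases between any pair of group 13 transcripts was 11 to 16. Over all 42 pairs of genes of the same group, homeobox identity ran from 67.2% to 93.9% with a median of 80.6%. Over the 569 pairs of Hox genes in different clusters the longest shared run had a median of 15 bases, and 2 pairs shared at least 50 bases, namely Hoxa6 with Hoxb4 (52) and Hoxb9 with Hoxc9 (50).

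Overlap with neighbours inside a cluster touched other members. Hoxd3 and Hoxd4 share 62.3% and 52.3% of their exon bases with another gene on the same strand, so the values of Hoxd4 are uncertain. Exon bases shared with a gene of the other strand made up 52.9% of Hoxb3, which neither table lists, 35.0% of Hoxa11, 27.3% of Hoxb2, 25.4% of Hoxa3 and 20.4% of Hoxa7. The library kit was directional per the labels, and whether reads were counted by strand is not given in the sources used here. Of the Hox genes called in either table, Hoxb2 alone shares exon bases with another gene.

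Hox transcripts were rare. In the authors' deposited control table the mean normalized read count of the listed Hox genes ran from 5.13 to 134 with a median of 12.3, against a median of 354 over all genes. In the deposited paused table it ran from 4.47 to 477 with a median of 11.5, against 350 over all genes. All 24 Hox genes listed in control cells, and 30 of the 31 listed in paused cells, lay under the median gene. Summed over the family they made up 13.6 ppm of the summed mean counts, where ppm is a share of 1e+06, in control cells and 26.5 ppm in paused cells. These means are not split by genotype, and which libraries they average is not given in the sources used here. The tables used here hold no value per library.

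Many members sat near the count floor, taken as a mean under 10 normalized counts. That held for 10 of the 24 in control cells, of which 3 were HoxA, 3 HoxB, 1 HoxC and 3 HoxD genes. It held for 14 of the 31 in paused cells, of which 4 were HoxA, 2 HoxB, 5 HoxC and 3 HoxD genes. Another 15 members were not listed in the control table and 8 not in the paused table, where the tables themselves stop near a mean of 4. By cluster the control table listed 6 of 11 HoxA genes, 7 of 10 HoxB, 4 of 9 HoxC and 7 of 9 HoxD. The paused table listed 8 HoxA, 7 HoxB, all 9 HoxC and 7 HoxD genes.

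A few genes stood well above the rest of the family. Hoxc13, a regulator of hair keratins, had a mean normalized count of 134 in control cells and 477 in paused cells. Hoxb9, a gene of the thoracic skeleton, had 86.4 and 122, and Hoxd13, a gene of the digits, had 83.9 and 60.3. Each of these 3 was thus well clear of the floor, unlike most of the family.

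Per length, the same genes were among the highest. In ppm per kilobase of exon, computed from the mean counts of the authors' deposited control table and GENCODE M21 exon lengths, the level was 1.18 for Hoxc13, 0.734 for Hoxd13, 0.729 for Hoxb9 and 0.383 for Hoxc12. From the paused table it was 4.37 for Hoxc13, 1.21 for Hoxc12, 1.07 for Hoxb9 and 0.548 for Hoxd13. Neighbouring ranks cannot be separated here, because the spread of a mean over libraries is not in the tables. Fewer cells expressing a gene and less of its RNA in each cell cannot be told apart in bulk samples.

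**Figure D1:**
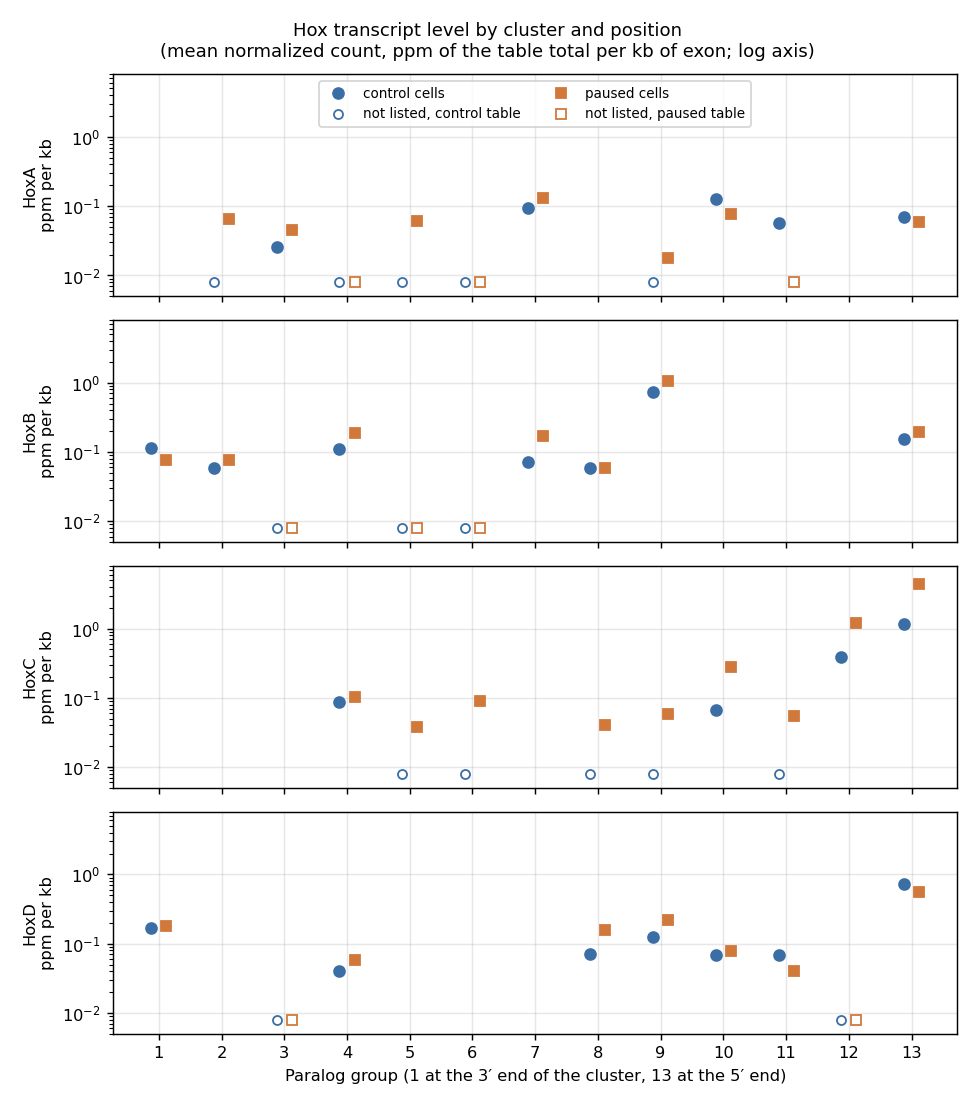
Level of the Hox genes reported here in ppm per kilobase of exon, on a log axis, by cluster and paralog group, computed from the authors' deposited control table (circles) and paused table (squares), with open symbols at the foot of a panel for genes that are not listed and have no value. Hoxb9, Hoxc12, Hoxc13 and Hoxd13 stand above the other members plotted in both tables.

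The direction of the tables was set by Smad2 itself, so its fall is no separate check of the labels. Its change was -0.35 on the log2 scale (SE 0.07, adjusted p = 6.5e-06 by the deposited DESeq2 test) in the authors' deposited control table and -0.63 (SE 0.06, adjusted p = 4.1e-26) in the paused table, which is 0.786 and 0.646 times the wild-type level, so Smad2 transcript was still present. Neither table says which genotype is the numerator, and changes are read as knockout over wild type because Smad2 is lower that way. With the opposite reading every direction given here would turn. The labels do not say that replicates came from separate cultures, so the p-values measure the spread between these samples only. The libraries are repeats of the wild type and of 2 knockout lines. A difference between these lines therefore cannot be told apart from an effect of Smad2 loss.

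In control cells 5 of the 24 listed Hox genes passed the deposited DESeq2 test at an adjusted p under 0.05, and all 5 were higher in knockout cells. That is 20.8% of the family, against 41.4% of all genes tested and 19.5% called higher. The 5 were Hoxb4, Hoxb9 and Hoxb13 of HoxB and Hoxc12 and Hoxc13 of HoxC. No HoxA or HoxD gene passed, although Hoxa11 and Hoxa13 were called too when changes were shifted to equal summed counts in both genotypes. No Hox gene was called lower, against 21.9% of all genes. Calls among rare genes were mostly higher, though. Of all genes under a mean of 10, 11.9% were called and 8.94% called higher. At means of 10 to 50 these shares were 29.3% and 20.6%. 10 of the 24 had an unadjusted p under 0.05, beside 48.1% of all genes. When the statistic was divided by its middle spread over all genes, no Hox gene was called and 1.48% of all genes were.

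The largest rise among called members was that of Hoxc12, a posterior gene next to Hoxc13, whose mean was 18.2 and whose change was 1.78 (SE 0.39, adjusted p = 4.57e-05, DESeq2), a 3.43-fold higher level, in the authors' deposited control table. Hoxb13, the most 5′ gene of HoxB, with a mean of 15.7, rose by 1.35 (SE 0.40, adjusted p = 0.00307). Hoxb4, which is known for expanding blood stem cells, rose by 1.10 (SE 0.37, adjusted p = 0.0105) at a mean of 13.2. Hoxc13 rose by 0.76 (SE 0.17, adjusted p = 4.65e-05) and Hoxb9 by 0.68 (SE 0.16, adjusted p = 0.000123). The larger folds thus stood at the lower counts, and the pair at high counts changed 1.70-fold and 1.60-fold.

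Several other members of the deposited control table fell short of the threshold. Hoxa13, a gene of the limb and genital tract, had a change of 1.40 (adjusted p = 0.0503, DESeq2) at a mean of 7.89. Its neighbour Hoxa11, of the kidney and uterus, had 1.22 (adjusted p = 0.0554) at 6.10. Hoxb8 had 1.00 (adjusted p = 0.085) at 7.04, and Hoxb2, of the hindbrain, had 0.92 (adjusted p = 0.0794) at 9.46. Changes below 0, none of them called, were seen among others in Hoxb1 (-0.83), Hoxd9 (-0.80), Hoxd8 (-0.52), Hoxd4 (-0.11) and Hoxb7 (-0.08). Hoxb1, of the hindbrain, had the largest of these, with a 95% interval from -1.66 to 0.01 and an adjusted p of 0.107 by DESeq2.

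**Figure D2:**
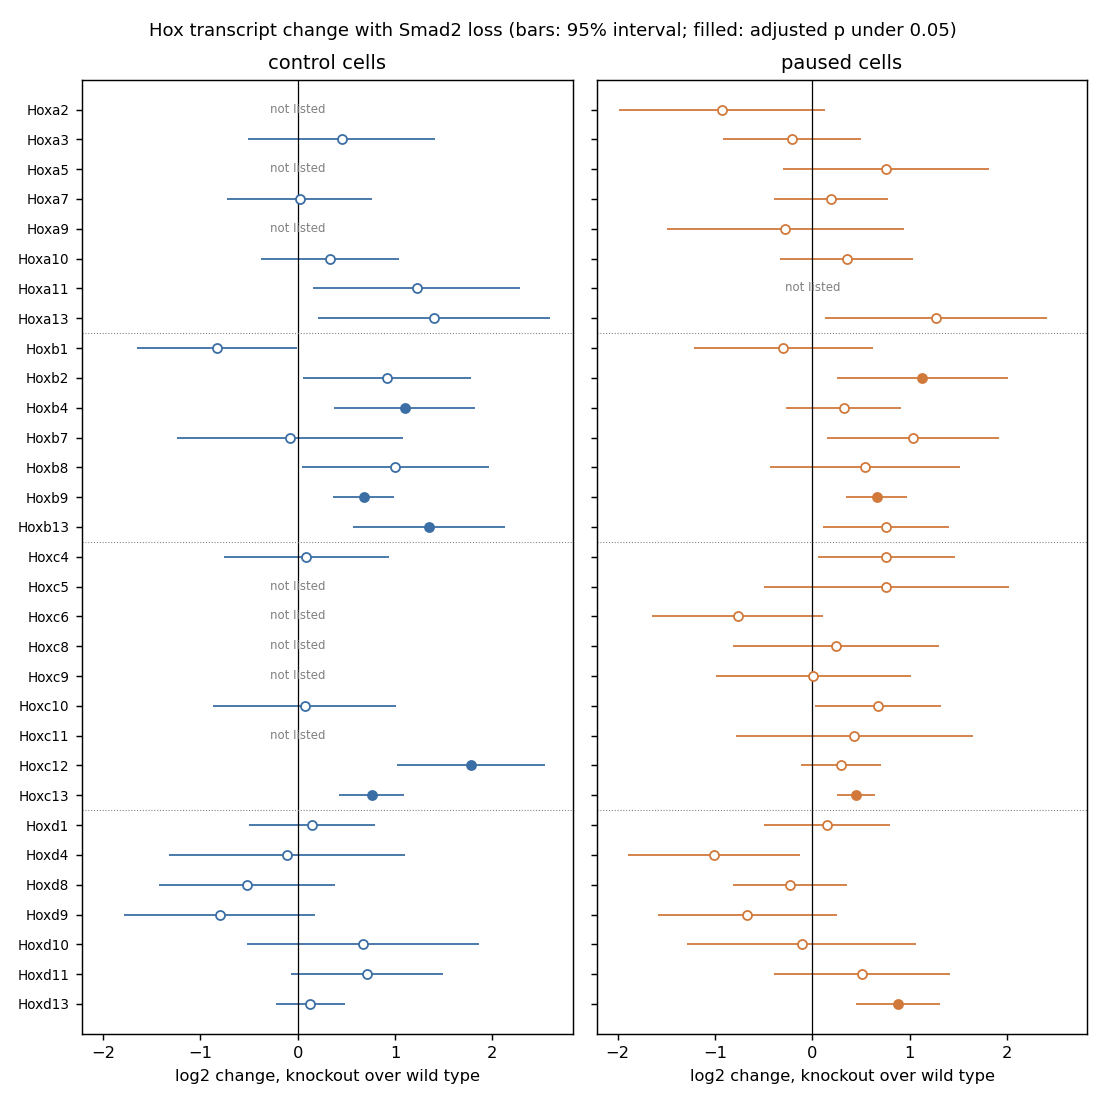
Change of the listed Hox genes reported here, knockout over wild type on the log2 scale, by cluster and paralog number in the authors' deposited control and paused tables, with 95% intervals from the deposited standard errors and called genes filled. The called genes all lie above 0, and those of control cells belong to HoxB and HoxC.

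Split by paralog group in control cells, none of the 5 listed anterior genes (groups 1 to 3) was called, and their median change was 0.15. Of the 7 central genes (groups 4 to 8) 1 was called, with a median of 0.02. Of the 12 posterior genes (groups 9 to 13) 4 were called, with a median of 0.69. Over all genes 41.4% were called and 19.5% were called higher. Posterior genes also had more counts, with a median mean of 14.5 against 9.03 for central and 12.2 for anterior genes. A mean of at least 50 was seen in 3 of the 12 posterior, 0 of the 7 central and 1 of the 5 anterior genes. Across the 24 listed genes the rank correlation of change with paralog number was 0.52, given as a description because neighbouring genes and libraries are shared. The median over all Hox genes was 0.39, against 0.00 over all genes tested.

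In paused cells 4 of the 31 listed Hox genes were called, again all higher in knockout cells, which is 12.9% against 42.6% of all genes tested and 20.5% called higher. They were Hoxb2 and Hoxb9 of HoxB, Hoxc13 of HoxC and Hoxd13 of HoxD. No Hox gene was called lower, against 22.0% of all genes. Here too calls among rare genes were mostly higher. Of all genes under a mean of 10, 11.5% were called and 8.81% called higher. At means of 10 to 50 these shares were 28.9% and 21.1%. Hoxb9 and Hoxc13 were the 2 members called in both conditions, of 23 in both tables, beside 30.4% of all genes in both tables called in both and 14.3% called higher in both. 10 of the 31 had an unadjusted p under 0.05, beside 48.7% of all genes. With the scaled statistic none was called, beside 2.25% of all genes.

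In the authors' deposited paused table Hoxb2 had the largest change of the called members, 1.13 (SE 0.45, adjusted p = 0.0307, DESeq2), at a mean of 11.7. Hoxd13 rose by 0.88 (SE 0.22, adjusted p = 0.000293), a 1.84-fold higher level. Hoxb9 rose by 0.66 (SE 0.16, adjusted p = 0.000178) and Hoxc13 by 0.45 (SE 0.10, adjusted p = 2.95e-05), or 1.36-fold. Hoxc12, which is among the highest per length, had a change of 0.29 (SE 0.21, adjusted p = 0.257). Among the 5 members at means of 50 to 500 in paused cells, 3 were thus called and all 5 had a change above 0. Of all genes at such means 50.8% were called and 52.2% had a change above 0.

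Just outside the threshold in the deposited paused table stood Hoxb13 at 0.76 (adjusted p = 0.0524, DESeq2), Hoxb7 at 1.03 (0.053), Hoxd4 at -1.01 (0.0573) and Hoxa13 at 1.27 (0.0626). The 8 members listed only in paused cells were Hoxa2, Hoxa5, Hoxa9, Hoxc5, Hoxc6, Hoxc8, Hoxc9 and Hoxc11, at means of 4.47 to 9.69. None of these 8 was called, and their changes ran from -0.93 for Hoxa2 to 0.76 for Hoxa5 and Hoxc5. By position, 1 of 6 anterior, 0 of 11 central and 3 of 14 posterior genes were called, with medians of -0.03, 0.32 and 0.44, beside 42.6% of all genes called and 20.5% called higher. Of the 14 posterior genes 4 had a mean of at least 50, against 0 of the 11 central and 1 of the 6 anterior genes. The median means of these groups were 15.1, 9.69 and 11.8, in that order. The rank correlation of change with paralog number was 0.33 over 31 genes.

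The low counts bear on what these tests could call. Among Hox genes with a mean under 10, a change had to exceed 0.86 to 1.22 in control cells, or 0.88 to 1.25 in paused cells, for its 95% interval to leave out 0. A call rests on the adjusted p and asked for more than that. Hoxb2, Hoxb8, Hoxa11 and Hoxa13 in control cells had intervals that left out 0 and were not called. The same held for Hoxd4 and Hoxa13 in paused cells. The median SE was 0.11 in control and 0.10 in paused cells over all genes, and 0.54 in both over all genes with a mean under 10. None of the 10 control and 14 paused Hox genes under 10 was called, where 11.9% and 11.5% of all genes at such means were, with 8.94% and 8.81% higher. At means of 10 to 50, 3 of 10 Hox genes were called in control and 1 of 12 in paused cells, beside 29.3% and 28.9% of all genes, with 20.6% and 21.1% higher. At means of 50 to 500 the counts were 2 of 4 and 3 of 5, beside 49.5% and 50.8%, with 28.1% and 28.9% higher.

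**Figure D3:**
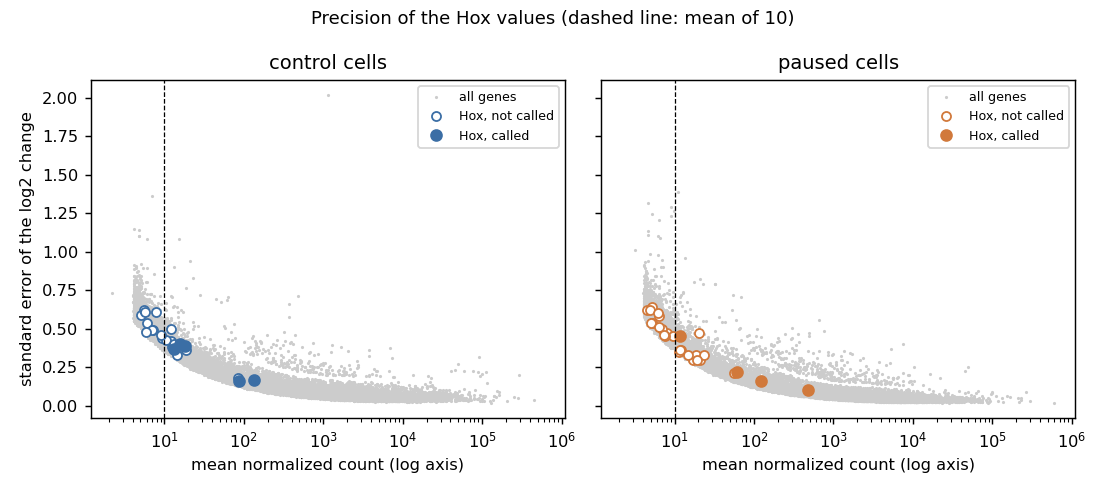
Standard error of the change on the log2 scale against the mean normalized read count, on a log axis with a dashed line at 10, for all genes (grey) and for the Hox genes reported here in the authors' deposited control and paused tables. Hox genes follow the band of all genes, with standard errors from 0.16 to 0.62 in control cells and from 0.10 to 0.64 in paused cells.

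Direction can also be read against genes of like abundance. A change above 0 was seen in 18 of 24 Hox genes in control cells (75.0%) and in 22 of 31 in paused cells (71.0%), beside 50.1% and 49.8% of all genes. Rare genes as a whole leaned the same way: 66.1% and 66.2% of all genes under a mean of 10, and 64.4% and 62.2% of those at 10 to 50, had a change above 0. In those bands the Hox counts were 7 of 10 and 8 of 10 in control cells, and 8 of 14 and 9 of 12 in paused cells. At 50 to 500 they were 3 of 4 and 5 of 5, beside 53.3% and 52.2% of all genes. Under a mean of 10 the Hox share was thus close to that of all genes.

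Whether the response to Smad2 loss differed between conditions was tested as the paused change minus the control change, for the 23 Hox genes in both tables. None was called (normal test with Benjamini-Hochberg adjustment over 19134 genes), against 1.44% of all genes, or 0.716% with a larger and 0.721% with a smaller value in paused cells. The difference was above 0 in 11 of the 23, beside 51.3% of all genes. 3 had an unadjusted p under 0.05, among them Hoxc12 and Hoxd13, which is close to the 12.9% of all genes. Hoxc12 differed by -1.49 (SE 0.45, adjusted p = 0.0547), which is 1.78 in control and 0.29 in paused cells. Hoxd13 differed by 0.75 (SE 0.28, adjusted p = 0.178). With changes shifted to equal summed counts in both genotypes, Hoxc12 became the 1 Hox gene called, beside 1.54% of all genes.

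For Hoxb9 the difference was -0.01 with a 95% interval from -0.46 to 0.43, and for Hoxc13 it was -0.31 with an interval from -0.70 to 0.07. For Hoxb4, called in control cells only, the interval ran from -1.71 to 0.16, and for Hoxb13 from -1.62 to 0.43. For Hoxb2, called in paused cells only, it ran from -1.02 to 1.44. For Hoxc12, called in control cells only, it ran from -2.36 to -0.61, and for Hoxd13, called in paused cells only, from 0.19 to 1.30. These intervals are not adjusted for the number of genes, and neither gene passed the adjusted test. 19 of the 23 genes had the same sign in both tables, 15 above 0 and 4 below, beside 79.6% of all genes with the same sign and 74.1% of those with a mean under 50 in both.

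**Figure D4:**
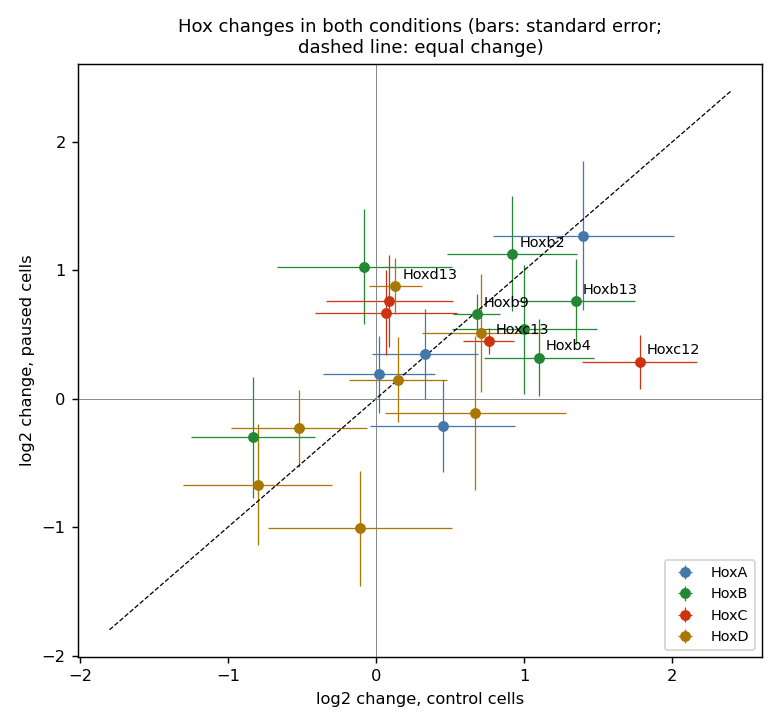
Change of the Hox genes reported here that both deposited tables list, knockout over wild type on the log2 scale, in control cells (horizontal) against paused cells (vertical), with standard errors as bars. Hoxb9 lies close to the line of equal change, Hoxc12 lies below it and Hoxd13 above it.

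The 5′ side of HoxB held called genes beyond the Hox genes themselves. Between Hoxb13 and Hoxb9 lie the noncoding Gm53 (chr11:96251105-96264868) and Mir196a-1 (chr11:96265164-96265265), and further out lie Ttll6, Calcoco2 and Atp5g1. In the authors' deposited control table Gm53 rose by 1.05 (SE 0.13, adjusted p = 3.08e-15, DESeq2) at a mean of 168, and Mir196a-1 by 1.08 (SE 0.25, adjusted p = 7.86e-05) at 32.2. Ttll6, a tubulin-modifying enzyme, rose by 1.19 (SE 0.14) and Calcoco2, a receptor of selective autophagy, by 1.35 (SE 0.14). Atp5g1, a subunit of ATP synthase, rose by 0.12 (SE 0.04). Among genes listed in the table, the 7 in a row from Atp5g1 to Hoxb9 (chr11:96068852-96276595), were all called higher in control cells, with annotated genes that are not listed lying between them. Such rows of at least 7, a length taken from this row itself, took in 116 of the 17357 placed genes (0.668%), in 13 rows. That share is a description and no test of the row.

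In paused cells Calcoco2 rose by 1.90 (SE 0.15, adjusted p = 2.22e-33, DESeq2) and Ttll6 by 1.47 (SE 0.13, adjusted p = 1.05e-29). Gm53 rose by 0.79 (SE 0.11) and Mir196a-1 by 0.82 (SE 0.20) in the authors' deposited paused table. There the row was broken at Hoxb13, and Gm53, Mir196a-1 and Hoxb9 were called side by side. Rows of at least 3, again the length of the row seen, were common there, with 838 of 17415 placed genes (4.81%) in 224 rows. On the 3′ side of HoxB, Skap1 (0.13 and 0.49) and Snx11 (0.02 and -0.09) were not called, and Cbx1, a heterochromatin protein, fell by 0.17 in control cells and had -0.11 (adjusted p = 0.0514, DESeq2) in paused cells. None of these genes in and beside HoxB was called for the difference between conditions.

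**Figure D5:**
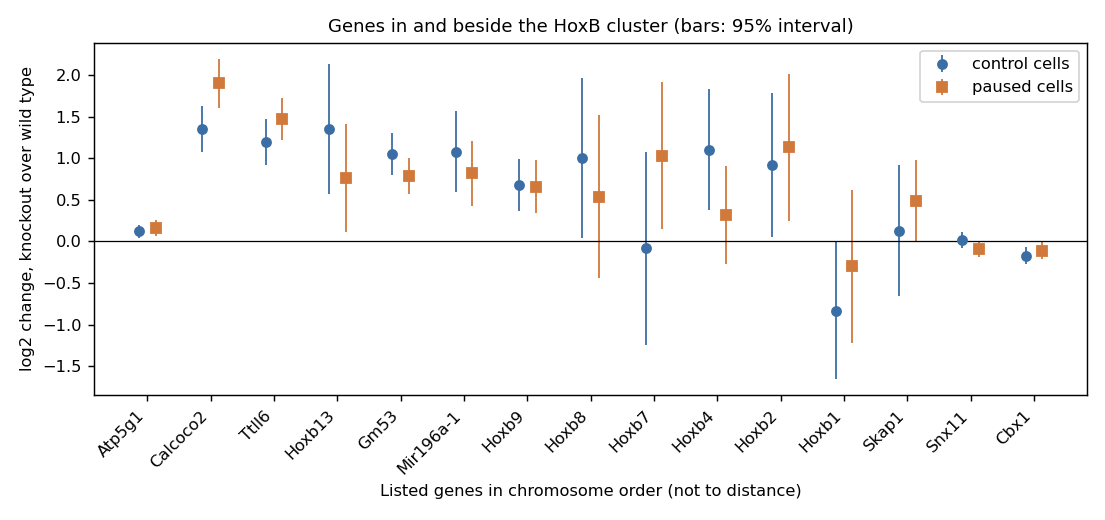
Change of the listed genes in and beside HoxB, knockout over wild type on the log2 scale, in chromosome order and not to distance, with 95% intervals as bars, in control cells (circles) and paused cells (squares). The genes from Atp5g1 to Hoxb9 lie above 0 in both conditions, and from Hoxb8 to Cbx1 the sign of the change varies.

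Mir196a-1 is printed because it sits between called Hox genes and codes for a known repressor of Hox transcripts. The microRNA miR-196a-5p (RefSeq, GRCm38.p6, chr11:96265187-96265208 on the plus strand) and its relative miR-196b-5p from HoxA (chr6:52230129-52230150, minus strand) share a seed, bases 2 to 8, which is in capitals, and differ at 1 base.
miR-196a-5p: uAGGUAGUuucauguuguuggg
miR-196b-5p: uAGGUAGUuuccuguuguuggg
A well-known target lies in the 3′ UTR of Hoxb8, in exon 2, at chr11:96284888-96284909 on the plus strand, 418 bases after the stop codon. Capitals mark the 21 of 22 bases that are the exact complement of miR-196a-5p. The lower-case g faces a U of the seed, and pairs of G with U were not counted.
Hoxb8 site: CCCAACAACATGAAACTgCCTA
Of 20452 genes searched, Hoxb8 alone had a 3′ UTR site with as many exactly complementary bases. In the authors' deposited tables Hoxb8 had a change of 1.00 (SE 0.49, adjusted p = 0.085, DESeq2) in control cells and 0.54 (SE 0.50, adjusted p = 0.403) in paused cells, at means of 7.04 and 6.87. Poly(A) libraries count the primary transcript at Mir196a-1 and not the mature microRNA, whose level was not measured. Mir196a-2 and Mir196b were not listed in either table.

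Beside all 4 clusters, 22 of the 24 nearest flanking protein-coding genes were listed in the authors' deposited tables. Of these, 5 were called higher and 6 lower in control cells (median 0.09), and 6 higher and 5 lower in paused cells (median -0.00). These 11 of 22 in each table stand beside 41.4% and 42.6% of all genes called. For the difference between conditions 1 of the 22 was called, beside 1.44% of all genes. It was Calcoco1 beside HoxC, at -0.20 (SE 0.04, adjusted p = 0.000963, normal test). Inside the clusters 5 of 46 other annotated genes were listed in each table, and Gm53 and Mir196a-1 were called. Hotairm1, a noncoding transcript of HoxA, had -0.26 and -0.39, and Haglr, beside Hoxd1, had 0.44 and -0.04, none of them called.

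Promoter letters were read in RefSeq promoters of GRCm38.p6, from 250 bases before to 50 after each start, which matched 22 of the 39 members. Those of Hoxb4 (chr11:96318017-96318316) and Hoxd13 (chr2:74667975-74668274), both on the plus strand, are shown as the called genes among them. Capitals mark matches on either strand to CAGAC, the SMAD element, or TATAAA, the TATA box.
Hoxb4: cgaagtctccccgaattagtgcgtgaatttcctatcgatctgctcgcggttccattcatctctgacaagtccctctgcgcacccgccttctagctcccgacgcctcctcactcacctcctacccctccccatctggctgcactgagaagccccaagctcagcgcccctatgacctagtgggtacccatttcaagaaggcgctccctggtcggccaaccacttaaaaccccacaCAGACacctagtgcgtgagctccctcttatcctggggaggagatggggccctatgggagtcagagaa
Hoxd13: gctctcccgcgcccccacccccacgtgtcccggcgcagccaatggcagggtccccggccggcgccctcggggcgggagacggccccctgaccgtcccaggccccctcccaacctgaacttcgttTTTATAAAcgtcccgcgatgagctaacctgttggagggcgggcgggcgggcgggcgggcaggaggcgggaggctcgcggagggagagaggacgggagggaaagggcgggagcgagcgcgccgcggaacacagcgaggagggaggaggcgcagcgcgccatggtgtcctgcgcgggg
CAGAC was found in 9 of the 22 Hox promoters, beside 49.7% of all 27025. AATCCACA or AATACACA, letters bound by FOXH1, stood in 1 of 22, that of Hoxa6, beside 1.87% of all. TATAAA stood in 3 of 22, those of Hoxb8, Hoxd4 and Hoxd13, beside 14.2%, and in Hoxd13 overlapping matches on both strands count as 2. The median number of CG pairs was 13.5 in Hox promoters and 7 in all, with 14 in Hoxb4 and 37 in Hoxd13. These matches are descriptions of letters and say nothing on binding.

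HoxC took a larger share of the family in paused cells, and Hoxc13 made up most of it. Its listed genes held 26.9% of the Hox mean counts in the deposited control table and 51.0% in the paused table, while HoxA went from 26.3% to 20.4%, HoxB from 23.8% to 17.0% and HoxD from 23.0% to 11.6%. Without Hoxc13 the HoxC share was 7.01% in control and 17.5% in paused cells, while HoxA held 33.4% and 34.4%, HoxB 30.3% and 28.6% and HoxD 29.3% and 19.5%. These cluster shares rest on different gene sets, because genes that are not listed add nothing. With Hoxc13 included, HoxC had 4 listed genes in control and 9 in paused cells. The share of summed mean counts was 4.14 times as high in paused as in control cells for Hoxc10, 3.70 times for Hoxc13, 3.17 times for Hoxc12 and 1.17 times for Hoxc4. By cluster the median ratio was 3.43 in HoxC, 1.40 in HoxA, 1.29 in HoxB and 1.12 in HoxD. It was 1.40 over the 23 Hox genes in both tables and 1.06 over all genes.

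A ratio of at least 1.5 was seen in 9 of these 23 genes, against 21.1% of all genes and 29.3% of those with a control mean under 500. A ratio at least 1.5-fold lower was seen in 2, Hoxd11 (0.578) and Hoxa10 (0.627), against 14.1% of all. A ratio of at least 3 was seen in Hoxc10, Hoxc12 and Hoxc13, against 2.21% of all genes and 3.82% of those with a control mean under 500. That of Hoxc10 rests on a control mean of 5.92, under the floor of 10. These means are not split by genotype and the tables were normalized separately, so no test of an INK128 effect was made. 25.8% of the Hox genes in the paused table were not in the control table, beside 4.23% of all genes. All 8 of them had means under 10, which makes 8 of the 14 Hox genes at such means, beside 31.5% of all genes there. Hoxa11 was the 1 member listed in control cells only (4.17%), beside 3.27% of all genes. That is 1 of the 10 Hox genes under 10, beside 25.0% of all genes there.

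The partners and regulators of Hox genes were read in the authors' deposited tables, where 41.4% of all genes were called in control and 42.6% in paused cells, or 49.6% and 51.3% of those with a mean of at least 50. Of the 9 TALE partners, homeodomain proteins that bind DNA with Hox proteins, 3 were called higher in control cells, among them Pknox2 (1.07, SE 0.15) and Meis2 (0.35, SE 0.14). In paused cells 3 were called higher, among them Pknox2 (1.10, SE 0.12) and Pbx3 (0.34, SE 0.09), and Meis3 (-0.32, SE 0.07) fell. The Cdx genes activate central and posterior Hox genes in the embryo. Cdx1 fell by 1.21 (SE 0.25) in control and 0.92 (SE 0.25) in paused cells, and Cdx2 by 0.84 (SE 0.22) and 0.92 (SE 0.35). They were the only called genes of the 6 Cdx and other ParaHox genes in either condition.

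Of 16 listed retinoid genes, 2 were called higher and 4 lower in control cells, and 6 higher and 4 lower in paused cells. Cyp26a1, which breaks down retinoic acid, fell by 0.53 (SE 0.14) in control and by 0.86 (SE 0.29) in paused cells, and Rxra, a retinoid receptor, rose by 0.65 (SE 0.10) and 0.59 (SE 0.06). Among those called in control cells were also Rxrg (-0.89), Rara (-0.40) and Rarg (0.22). The other large changes among called genes in paused cells were those of Dhrs3 (-1.17), Stra6 (0.68), Aldh1a2 (0.53) and Crabp1 (0.39). Of the 8 Polycomb complex 2 genes, 4 were called higher in control and 7 in paused cells, and none lower, among them Suz12 (0.41 and 0.58), Aebp2 (0.46 and 0.35), Phf19 (0.42 and 0.21) and Ezh1 (0.10 and 0.29) in both, and Ezh2 (0.16) and Jarid2 (0.15) in paused cells. Over all genes 19.5% and 20.5% were called higher. Of the 8 MLL complex genes, 1 was higher and 2 lower in control cells, and 2 higher and 2 lower in paused cells. These were Kmt2b (0.15 and 0.15), Psip1 (-0.25 and -0.21) and Dpy30 (-0.19 and -0.20) in both, and Ash2l (0.19) in paused cells. Gmnn, of the list of geminin and hindbrain boundary factors, fell by 0.23 in control cells, and none of that list was called in paused cells. All these calls are those of the deposited DESeq2 tests.

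Cell type markers were read in the same tables, where the control table called 19.5% of all genes higher and 21.9% lower, and the paused table called 20.5% higher and 22.0% lower. Their part in the Hox results was not tested. All 8 embryonic stem cell markers were listed, at means of 11900 to 51700 and a summed 5180 ppm in control and 4460 ppm in paused cells, and 1 was called higher and 2 lower in each table. Of 8 endoderm markers 5 were called higher in each table (summed 11.6 and 14.0 ppm, Afp not listed). Of 8 mesoderm markers 1 was called lower in control and 3 in paused cells (38.8 and 38.9 ppm, Mesp1 and Msgn1 not listed). Fibroblast markers had 5 of 7 listed lower in control and 4 of 6 in paused cells (18.0 and 18.2 ppm, Lum not listed in either and Dcn not in paused cells). Neural markers had 2 higher and 1 lower, then 1 and 1, of 5 listed (138 and 50.6 ppm, Neurog2 and Olig2 not listed in either, Pax3 not in control and Nkx6-1 not in paused cells). Trophoblast markers had 3 higher and 2 lower, then 3 and 1 (271 and 323 ppm).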

How the data were processed

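Per the labels, 24 directional poly(A) RNA libraries were assigned to 6 groups, from the genotype and treatment in each title. FastQC, Trim Galore, HISAT2, featureCounts, DESeq2 and mm10 are named in the submitters' processing notes; versions, annotation and strand setting are not given in the sources used here. The authors deposited 2 results tables, 1 per condition. Per the file headers they hold a mean of normalized counts (a signal value that the authors averaged over libraries), a log2 fold change with its standard error, the Wald statistic (a deposited score), and the deposited p-value with its adjustment. No value per library and no depth per library could be read, so counts could not be refitted and the standard error is the measure of precision used. Which libraries were averaged, and whether both knockout lines entered each table, is not given in the sources used here.

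Hox rows were read from the whole tables, and called means an adjusted p under 0.05. The 95% intervals are the change plus or minus the normal quantile times its standard error. For the difference between conditions, the control change was subtracted from the paused change, its variance was the sum of both squared standard errors, and two-sided p-values from the normal distribution were adjusted (Benjamini-Hochberg) over all genes in both tables. This calculation was tried on simulated data whose noise followed the deposited standard errors. That trial cannot show whether those standard errors hold here. In the real data the middle spread of the difference statistic was 1.23. Levels per length used the union of GENCODE M21 exons. Ratios of paused to control shares have no test.

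Members, lists and rules were chosen with earlier results of these data known. The genes described in full were the called Hox genes, up to 6 per direction by size, those among the 3 highest per length, and up to 6 called genes of each list of TALE, Cdx and ParaHox, retinoid, MLL, Polycomb complex 2 and geminin genes. The values of 1 member and of 2 genes of these lists are not reported here, though they stay in the counts and medians. Hox genes just outside the threshold, flanking genes and the genes inside the clusters were named as well. Markers were those of embryonic stem cells, fibroblasts, mesoderm, neural cells, endoderm and trophoblast. Alternatives were a stricter adjusted p, a minimum fold, a test against a small fold, a statistic scaled to its spread, other scalings, a minimum mean, and other limits for the count floor. Software was Python (3.11.15), pandas (2.3.3), scipy (1.17.1) and numpy (2.4.6).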

Additional observations from a re-analysis of the deposited data

How the results depend on the processing

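The alternatives bear on the number of calls, since the shifts tried were too small to turn the sign of a called change. The 5 calls in control cells became 3 with a 2-fold minimum, 2 when tested against a 1.2-fold change (Hoxc12 and Hoxc13), 2 of the 4 tested at a mean of at least 50, and 0 with the statistic divided by its middle spread (2.76). Over all genes these settings called 6.98%, 10.6%, 51.1% and 1.48%. The 4 calls in paused cells became 1 with the 2-fold minimum (Hoxb2), 1 against 1.2-fold (Hoxd13) and 0 with the scaled statistic (spread 2.80). Over all genes these called 7.10%, 10.6% and 2.25%. With 0.01 as the adjusted limit 4 and 3 were called (30.9% and 32.3% of all genes), and centring on the median gave 5 and 4 (41.5% and 42.5%). With equal summed counts, which adds 0.06 and 0.04 to every change, 7 (Hoxa11 and Hoxa13 added) and 6 (Hoxb7 and Hoxb13 added) were called (39.8% and 41.1% of all genes). At that setting Hoxc12 became the 1 Hox gene of 23 called for the difference, beside 1.54% of all genes, where the other alternatives gave 0. The size of that shift supposes that each mean took in 4 wild-type and 8 knockout libraries, which the sources used here do not state. Near the floor were 10 Hox genes in control cells, or 0 with a limit of 5, 20 with a limit of 20 and 19 with 10 per kilobase, and 14 in paused cells, or 2, 23 and 25. No paired analysis was possible because the tables hold no value per library. The replicate block and leaving out each replicate were not run for that reason, and no result here can be tied to a single library or knockout line. The cause of a lost call was not tested.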
